A study of Mus musculus with 8 samples.

Results

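Immature Vpreb3+ B cells were B cells of the arthritic paw joint that carried Vpreb3 and no UMI of the maturity genes Ighd and Fcer2a. Cells were chosen by their measured counts under 1 rule: 250 to 3000 genes, at least 500 unique molecular identifiers (UMIs, each a tag of 1 captured transcript), at most 5% mitochondrial UMIs, at least 3 UMIs of Cd79a, Cd79b and Ms4a1 together, less than 5% of UMIs from S100a8 and S100a9, at most 1 UMI of Cd3d, Cd3e, Cd3g and Trac together, none of Ighd and Fcer2a, and at least 1 of Vpreb3. The rule found 481 of 10256 cells kept, which were part of 1407 B cells. A further 858 B cells carried Ighd or Fcer2a and served as the mature B cells of the joint, and 68 carried none of the 3 genes. The 12 genes that the rule read are described here without a test, and so are the genes Iglc1, Fam129c, Ly6d, Spib and Chchd10, which had named the population in earlier work on these same cells.

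The study asked whether monocytes reprogrammed by MCTR3, a lipid mediator of the maresin conjugate family, change the leukocytes of inflamed joints. All mice were C57BL/6, about 10 weeks old, with arthritis from K/BxN serum, whose antibodies cause joint inflammation, injected at day 0, day 2 and day 9. At day 12 they were given monocytes taken from other arthritic mice and held for 90 min with vehicle (Mono, 4 mice) or with 1 nM MCTR3 (Mono+MCTR3, 4 mice), so both groups were arthritic and both received monocytes. CD45+ leukocytes were sorted from the paw joints on day 22, and 10x Chromium 3′ libraries were sequenced. Mice not given serum or monocytes were not analysed here, and the treatment reached the transferred monocytes, not the B cells. The barcode suffix told 4 mice of a group apart without saying which labelled mouse each was, and numbers such as Mono mouse 2 are those suffixes.

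B lymphocytes are made in the bone marrow. A pro-B cell rearranges its heavy chain gene with the Rag1 and Rag2 recombinase and the polymerase Dntt, a pre-B cell shows the heavy chain with the surrogate light chain of Igll1 and Vpreb1 and divides, and an immature B cell replaces the surrogate with a kappa or lambda light chain and displays IgM. After the marrow it passes through transitional stages, gains IgD (Ighd) and CD23 (Fcer2a), and raises MHC class II and homing receptors. Vpreb3 is expressed from the pro-B stage and falls with maturation, so it marks a span of stages and not a single one.

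Depth was similar in the classes compared. The median was 2193 UMIs and 1012 genes in an immature Vpreb3+ B cell, against 2277.5 UMIs and 934 genes in a mature B cell. The mice gave 758 to 1913 cells kept and 1731045 to 6009009 UMIs. The immature cells numbered 64, 43, 39 and 79 in Mono mice 1 to 4 and 76, 137, 21 and 22 in Mono+MCTR3 mice 1 to 4, so the values of Mono+MCTR3 mice 3 and 4 rest on the fewest cells. Pairs of suffixes of a group shared 0 to 8 barcodes, and none of these was an immature Vpreb3+ B cell. A single cell of Mono+MCTR3 mouse 4 held 11003 haemoglobin UMIs of its 13587 UMIs. It met the rule and was kept, and results were also computed without it.

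Genes of the B lineage and of early B cells were checked against other cells of the joint, with every cell thinned to 1000 UMIs. An Ighm UMI was found in 99.4% of immature cells, 97.3% of mature B cells and 20.1% of T cells, and a light chain UMI in 97.5%, 99.9% and 6.78%, so these genes mark the lineage and not the stage. Cd24a, a surface protein high on early B cells, was found in 79.3% of immature cells, 41.6% of mature B cells, 1.18% of T cells and 43.8% of neutrophils, which also express it. Vpreb3 itself had a median of 5 UMIs per cell and a range of 1 to 34. Cd93, another marker of early B cells, was seen in 16.2% of immature and 3.26% of mature cells before thinning. After thinning, Vpreb3 was found in 88.9% of immature cells, 37.7% of mature B cells, 0.442% of T cells and 0.489% of neutrophils. Before thinning, 492 of 858 mature B cells (57.3%) held a Vpreb3 UMI, so Vpreb3 alone does not set the classes apart. Here and below, the T cells and neutrophils were taken without any UMI of Cd79a, Cd79b and Ms4a1. Their values may therefore understate the background of free B-cell RNA. Some listed genes of other lineages had no UMI in the 481 cells. These were Elane and Mpo of 13 neutrophil genes and C1qa and C1qc of 11 monocyte and macrophage genes. Siglech, Ccr9 and Klk1 of 5 plasmacytoid genes and Cd3g of 12 T and NK genes were also at 0. The other listed genes were present at some level. S100a8, a neutrophil gene, was found after thinning in 75.1% of immature cells, 79.8% of mature B cells and 74.8% of T cells. The summed level of the 13 neutrophil genes was 2779 to 5877 UMIs per 1000000 in immature cells and 2031 to 6057 in mature cells, and none of its 3 tested genes differed past the threshold between the classes. The plasma cell genes Ighg1, Ighg2c, Ighg3 and Tnfrsf17 were at 0 in both classes.

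Vpreb3 and Chchd10, both among the genes that mark the cells, lie close together on chromosome 10. The upstream regions of both are shown because they hold the octamer element of B-cell gene promoters, to which Oct factors and their B-cell coactivator Pou2af1 bind. The sequences are the 250 bases before the RefSeq start (GRCm38.p6, plus strand), and capitals mark the octamer, ATGCAAAT or its reverse complement ATTTGCAT. The GENCODE span of Vpreb3 begins earlier, so its window lies inside the annotated gene.
Vpreb3, chr10:75948050-75948299: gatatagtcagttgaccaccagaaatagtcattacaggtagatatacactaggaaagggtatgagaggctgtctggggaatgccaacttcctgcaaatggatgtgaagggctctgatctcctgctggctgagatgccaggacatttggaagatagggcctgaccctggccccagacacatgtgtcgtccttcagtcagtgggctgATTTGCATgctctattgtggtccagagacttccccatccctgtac
Chchd10, chr10:75932880-75933129: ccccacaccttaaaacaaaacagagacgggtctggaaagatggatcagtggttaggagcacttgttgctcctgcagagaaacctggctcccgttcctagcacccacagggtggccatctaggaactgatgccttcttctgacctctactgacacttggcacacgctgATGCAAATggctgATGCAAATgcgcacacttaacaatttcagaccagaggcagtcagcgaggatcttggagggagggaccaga
The octamer stood 45 bases before the start of Vpreb3 and 83 and 70 bases before that of Chchd10, and the starts are 15170 bases apart. On either strand it occurred in 526 of 32851 promoters of this length (1.60%). Among genes that were higher in the immature cells it was in 5 of 210 with a promoter (2.38%), and among those that were lower in 3 of 222 (1.35%), against 1.55% of all genes tested. Spib, the other marker with a promoter in the table, held none.

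The share of immature cells among leukocytes varied widely between mice, and the groups did not differ beyond that spread. They were 5.55%, 2.72%, 3.31% and 5.93% of the cells kept in Mono mice 1 to 4 and 5.68%, 7.16%, 2.09% and 2.90% in Mono+MCTR3 mice 1 to 4. The group means were 4.38% ± 1.60 and 4.46% ± 2.37 (SD, n = 4), and the ranges overlapped throughout (two-sided exact permutation test, p = 0.914, adjusted over 4 shares 0.914). Among B cells they were 33.9%, 43.9%, 40.6% and 35.7% in Mono and 32.9%, 29.8%, 36.8% and 39.3% in Mono+MCTR3. These means were 38.5% ± 4.57 and 34.7% ± 4.18 (SD, n = 4), and the mice of the groups overlapped (exact permutation test, p = 0.257, adjusted p = 0.495). With 4 mice in each group the smallest possible p is 0.0286. When every B cell was first thinned to 1000 UMIs, which also moves cells whose few Ighd or Fcer2a UMIs are lost into the class, the share of B cells was 42.3% to 43.8% in Mono and 33.1% to 40.4% in Mono+MCTR3, without overlap (exact permutation test, p = 0.0286, not adjusted).

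**Figure D1:**
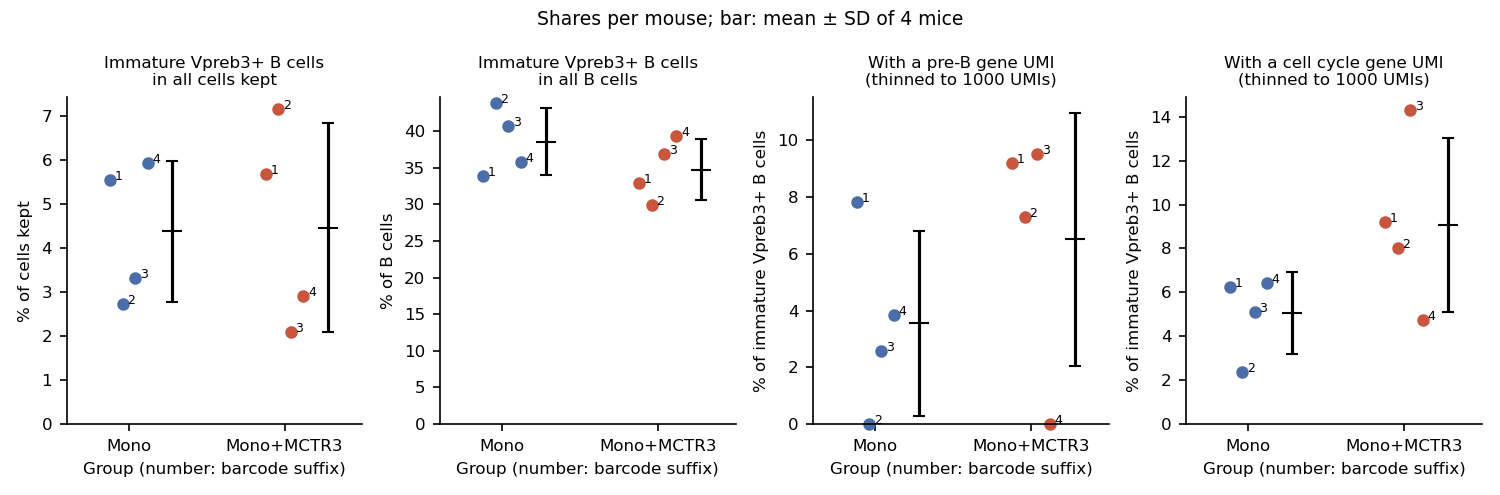
Shares per mouse. Each point is a mouse, numbered by its barcode suffix, with the mean ± SD of 4 mice as a bar; the vertical axes give percent of cells kept, of B cells and, in the 2 right panels, of immature Vpreb3+ B cells with a UMI of a pre-B or a cell cycle gene. The groups overlap in all 4 panels.

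Most of the cells held no pre-B gene at this depth. Of 481, 43 (8.94%) held a UMI of Igll1, Vpreb1, Vpreb2, Rag1, Rag2 or Dntt, 40 (8.32%) held a UMI of 9 cell cycle genes such as Mki67 and Top2a, 11 held both and 409 (85.0%) held neither. Thinned to 1000 UMIs, a pre-B gene was found in 5.86% of immature cells, 0.350% of mature B cells, 0.295% of T cells and 0.192% of neutrophils, and a cell cycle gene in 7.11%, 1.64%, 3.69% and 0.978%. Rag1 was in 27 immature cells and in 0 of 858 mature cells (exact 95% upper limit 0.429%). These shares cover counting error only.

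The pre-B genes came from few cells and few mice. Igll1 gave 20 UMIs in Mono mouse 1 and none in the other 3 Mono mice, and 147, 99, 7 and 0 UMIs in Mono+MCTR3 mice 1 to 4. Vpreb1 followed with 14, 0, 0 and 0 UMIs and with 122, 101, 6 and 0. Of 18 cells with 3 or more UMIs of the pre-B genes, 1 was from Mono and 17 from Mono+MCTR3. Dntt was seen in 10 cells, from 3 mice. Thinned to equal depth, the share of cells with a pre-B gene was 7.81%, 0%, 2.56% and 3.85% in Mono and 9.21%, 7.30%, 9.52% and 0% in Mono+MCTR3 (exact permutation test, p = 0.371, adjusted p = 0.495, n = 4). The difference of 2.95 points rose to 7.23 in unthinned cells and did not pass there either (exact permutation test, p = 0.171). The cell cycle share was 6.25%, 2.38%, 5.13% and 6.41% in Mono and 9.21%, 8.03%, 14.3% and 4.76% in Mono+MCTR3. The mean cell cycle share was 5.04% ± 1.86 against 9.07% ± 3.95 (SD), and the difference did not pass (exact permutation test, p = 0.114, adjusted p = 0.457, n = 4).

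The cells with pre-B genes differed from the rest in a set of B-cell genes that the split did not use. These are sums over cells of all mice in UMIs per 1000000 and are given without a test. The 32 cells with a pre-B gene and no cell cycle gene had 1440 of Sox4, an early lymphoid transcription factor, against 416 in the 409 cells with neither, and 1860 against 319 of Tifa, a TRAF6 adaptor. They had 336 against 3911 of Ms4a1 (CD20), 140 against 1577 of H2-Aa, an MHC class II chain, and 1804 against 17182 of Cd74, the invariant chain. Their Igkc, the kappa constant gene, was 6922 against 21451. The 11 cells with both kinds of gene had no Ms4a1 UMI, 11.6 per 1000000 of Iglc1 and a median of 7839 UMIs per cell. Ms4a1 had a UMI in 16.3% of the cells with a pre-B gene and in 91.0% of those with neither.

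**Figure D2:**
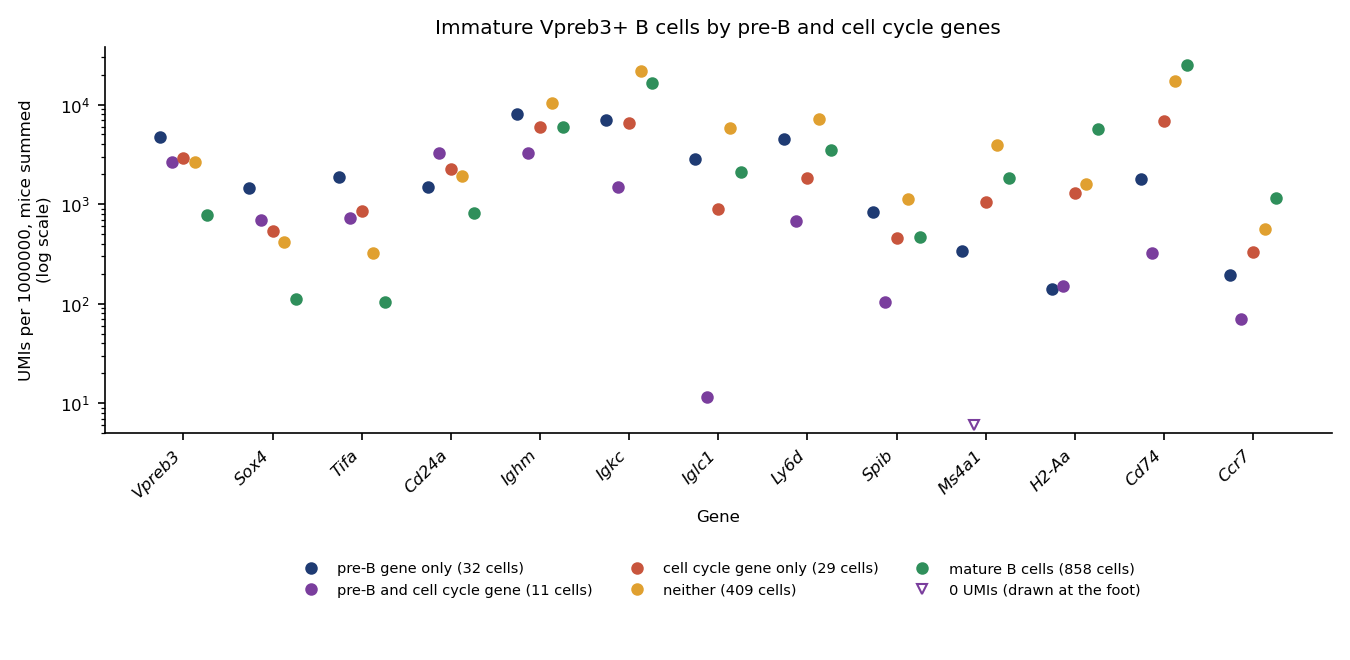
Levels of B-cell genes in immature Vpreb3+ B cells split by pre-B and cell cycle genes, and in mature B cells. The vertical axis is UMIs per 1000000 on a log scale, summed over the cells of all mice; open triangles mark 0 UMIs. Igkc, Ms4a1, Cd74 and Ccr7 are lowest in the 11 cells with both kinds of gene, and H2-Aa is near 140 to 151 in both kinds of cell with a pre-B gene.

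Levels at the edges of the rule are given without a test. The 47 cells with a single Vpreb3 UMI had 3410 of H2-Aa and 585 of Chchd10 per 1000000, and the 382 with 3 or more had 997 and 1505. Just outside, 175 B cells with Vpreb3 and a single UMI of Ighd or Fcer2a had 2969 of H2-Aa and 848 of Chchd10. The 68 B cells without Vpreb3, Ighd and Fcer2a had 4986 and 178, and their Chchd10 was below the 436 of mature B cells. A further 20 cells failed only the mitochondrial limit, 13 only the S100a8 and S100a9 limit and 5 only the upper limit on genes.

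Light chain use is given as a description, since Iglc1 was among the genes that named the population. A cell was called lambda when Iglc1, Iglc2 and Iglc3 together had more UMIs than Igkc, among cells with at least 10 light chain UMIs. Only the sum of the 3 lambda genes entered this measure, although they did not move alike. Before thinning, Iglc1 was found in 76.9% of immature and 54.0% of mature cells, and Iglc2 in 65.9% and 88.7%. By this measure 20%, 43.9%, 33.3% and 21.3% of the immature cells were lambda in Mono mice 1 to 4 and 20.3%, 24.2%, 25.0% and 19.0% in Mono+MCTR3 mice 1 to 4. Mature B cells gave 11.7%, 6.98%, 9.43% and 12.5% in Mono and 13.01%, 10.5%, 5.88% and 23.3% in Mono+MCTR3. The immature share was higher in 7 of 8 mice, by a mean of 14.2 percentage points ± 12.5 (SD, n = 8 mice). This measure was chosen after the data were seen, and with only cells in which the larger chain held at least 90% of the light chain UMIs the difference was 10.3 points. Light chain UMIs were below 10 in 17 of the 43 cells with a pre-B gene and in 7 of the 438 without.

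Immature and mature B cells of the same mice were compared gene by gene, with UMIs summed per mouse and class, mouse as a block, and edgeR's quasi-likelihood test. Of 1819 genes tested 591 passed an adjusted p of 0.05 (32.5% of all), 279 higher (15.3%) and 312 lower (17.2%) in the immature cells; 5 of the 591 are genes the rule read. The mice of both classes did not overlap for 7.09% of all genes. The split depends on scaling: with library totals in place of TMM, 865 genes passed, 662 higher and 203 lower, and the median log2 difference of all genes moved from 0.05 to 0.25. The values below are log2 differences and normalised CPM (UMIs per 1000000 UMIs of the genes tested, TMM scaled), with the lowest, median and highest of 8 mice.

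Chchd10, a small mitochondrial protein, stood at 1219, 1501 and 1796 CPM in the immature cells and at 364, 554 and 609 in mature cells. Fam129c, a B-cell protein, was at 417, 619 and 798 against 171, 228 and 395, and Spib, an Ets factor of B cells, at 795, 1102 and 1352 against 485, 582 and 668. For these 3 genes no immature value fell within the mature range. Ly6d, a surface protein of early B cells, was at 4621, 6806 and 9379 against 3986, 4467 and 5700, and its ranges overlapped. Iglc1 reached 13156 CPM in Mono mouse 2, where the next highest mouse had 6470. Because these genes named the cells, their levels are a description.

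Several genes of early B cells were higher. Of 20 pro-B and pre-B genes, 3 had enough UMIs to be tested and all 3 were higher (15.3% of all genes were). The filter was met by enough UMIs in either class, so a gene sparse in mature cells entered only by being abundant in immature cells. The count of 3 is therefore a description. Sox4 was at 247, 615 and 1259 CPM in immature cells and at 34.6, 113 and 531 in mature cells (log2 difference 1.97 ± 0.167, SE; edgeR adjusted p = 5.52e-10). Tifa was at 455, 531 and 814 against 65.3, 112 and 244 (2.08 ± 0.155, edgeR adjusted p = 6.11e-11), without overlap. Igll1, Vpreb1, Rag1 and Dntt were too sparse for this fit. Of 10 tested genes of the immature B list, the marker Iglc1 left out, 5 were higher, 1 was lower (Plaur) and 4 did not pass, with a median log2 difference of 0.28 beside 0.05 for all genes tested. Cd24a was at 1825, 2364 and 3195 against 832, 1036 and 1230 (1.19 ± 0.0806, edgeR adjusted p = 1.28e-11). Pafah1b3, an enzyme subunit that acts on platelet activating factor, was at 606, 826 and 1009 against 212, 233 and 330. Ighm differed by 0.50 ± 0.0529 (edgeR adjusted p = 2.71e-08). Igkc did not pass (−0.06 ± 0.0621, edgeR adjusted p = 0.508), and its sign turned positive with library totals and with cells thinned to 1000 UMIs. In both of these alternatives it passed as higher (edgeR adjusted p = 0.04997 and 0.0172).

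The 10 genes with the largest rise in all 8 mice were Csrp2, Coq7, Smarca4, Tifa, Atp1b1, Sox4, Myl4, Ccnd3, Bcl7a and Fam53b, with log2 differences of 1.79 to 2.34. The filter could be met in the immature cells alone, so this ranking is a description. Csrp2 and Coq7 had no UMI in at least 1 mouse's mature cells. Smarca4 and Bcl7a encode subunits of the BAF chromatin remodelling complex. Smarca4 was at 124, 182 and 398 CPM against 12.3, 36.6 and 121 (2.12 ± 0.208). Ccnd3, the D-type cyclin that pre-B cells need to divide, was at 158, 291 and 795 against 49.0, 86.8 and 139 (1.87 ± 0.197). Myl4, a myosin light chain, was at 214, 268 and 587 against 42.7, 72.6 and 277. Among 13 B-lineage transcription factors, the marker Spib left out, 4 were higher, 1 was lower and 8 did not pass. Over all genes 15.3% were higher and 17.2% lower. Ebf1, which commits cells to the B lineage, was higher by 0.62 ± 0.0671, Tcf3 by 0.67 ± 0.110, Foxo1 by 0.55 ± 0.165 and Pou2af1 by 0.62 ± 0.148, and Bcl11a was lower by 0.42 (log2 difference −0.42 ± 0.155). The Bcl11a call was lost in 8 of 20 alternatives, with adjusted p up to 0.379, and with library totals no gene of this list was lower.

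Genes of mature B cells were lower. Of 20 tested, 12 were lower, none was higher and 8 did not pass, with a median log2 difference of −1.11 beside 0.05 for all genes; 17.2% of all genes were lower. The MHC class II genes stood furthest apart. H2-Aa was at 806, 1565 and 1882 CPM in immature cells and at 5762, 7254 and 7957 in mature cells (−2.26 ± 0.0882, edgeR adjusted p = 2.91e-16), H2-Ab1 differed by −1.95 ± 0.0777 and H2-Eb1 by −2.28 ± 0.0944. Cd74, which escorts class II chains, was at 9451, 16567 and 21241 against 30884, 32472 and 37489 (−1.05 ± 0.0850). Cd83, which stabilises class II on the surface, was at 103, 195 and 456 against 468, 1110 and 1464. None of these 5 genes overlapped between the classes.

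Genes of retention and homing were lower as well. Of 10 tested genes of retention and homing 7 were lower and 3 did not pass (17.2% of all genes were lower). Gpr183, an oxysterol receptor that positions B cells in follicles, differed by −3.03 ± 0.208, Ccr7 by −1.36 ± 0.112, Cxcr5 by −1.17 ± 0.175 and Cxcr4, the receptor for the marrow chemokine Cxcl12, by −1.10 ± 0.145. Cd55, a complement inhibitor, was at 75.8, 102 and 157 against 342, 551 and 653 (−2.06 ± 0.151). Bcl2, which protects mature B cells from death, differed by −1.81 ± 0.278 and was lower in 7 of 8 mice. The largest falls in all 8 mice included Apoe, Gpr183, Ms4a4c, Itgb7, Gimap4, Wfdc17, Myc, B4galnt1 and Hspa1a, from −3.59 to −2.36. The genes Apoe, Ms4a4c, Gimap4, Wfdc17, Myc, B4galnt1 and Hspa1a had no UMI in at least 1 mouse's immature cells. The filter could be met in the mature cells alone, so the ranking of falls is a description too.

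**Figure D3:**
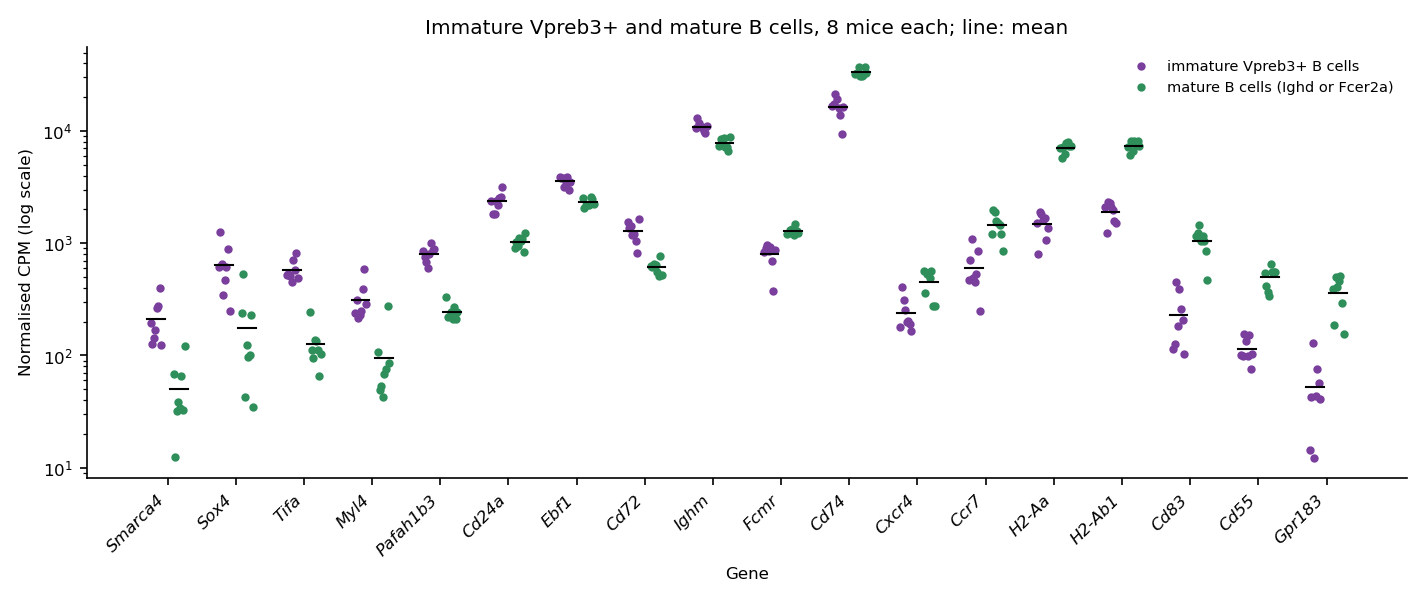
Normalised CPM (log scale) of genes of early and mature B cells. Each point is a mouse, in immature Vpreb3+ (purple) and mature (green) B cells, and the line is the mean of 8 mice. The classes do not overlap for Tifa, Cd24a, Ebf1, Ighm, H2-Aa, Cd74 and Cd55, and overlap for Sox4, Myl4, Cxcr4 and Ccr7.

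Of 15 receptor signalling genes tested, 4 were higher, 3 lower and 8 did not pass, beside 15.3% higher and 17.2% lower over all genes. The lower count is near the share over all genes. With library totals 9 of these genes were higher and 3 lower. Cd72, an inhibitory co-receptor, was higher by 1.06 ± 0.104, Fcrla by 0.64 ± 0.0917, the kinase Lyn by 0.60 ± 0.119 and the adaptor Blnk by 0.51 ± 0.120. Bank1, a scaffold of receptor signalling, differed by −0.73 ± 0.127 and Cd22, an inhibitory lectin, by −0.60 ± 0.162. The cell cycle genes with enough UMIs were Hmgb2, Tuba1b and Tubb5, and all 3 were higher, by 1.47, 1.43 and 0.75. They are 3 of 23 listed, and the filter could be met in the immature cells alone, so this count is a description. With the cells that held a pre-B or cell cycle gene left out, Hmgb2 and Tubb5 turned to −0.25 and −0.46. Tubb5 then passed as lower (edgeR adjusted p = 0.0106) and Hmgb2 did not pass.

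Genes that respond to stimulation and to handling were lower in the immature cells too. Of 14 immediate early genes tested 12 were lower, among them Junb (−1.57 ± 0.122), Nr4a1 (−2.17 ± 0.199) and Fos (−1.19 ± 0.138), and of 8 heat shock genes 6 were lower. With library totals 10 immediate early genes were lower and 1 higher, and 4 heat shock genes were lower. Of 5 interferon genes 1 was lower (Ly6a), and of 5 survival genes only Bcl2 passed. Cytosolic ribosomal protein genes, a list made after the data were seen, were lower for 70 of 77 and higher for none (median −0.50), and with library totals for 60, with 1 higher. The counts of the main fit stand beside 17.2% of all genes that were lower, and those of the interferon and survival lists are near it. Those with library totals stand beside 203 lower of 1819 genes. In the lists for B-1, marginal zone and memory cells and for germinal centre and plasma cells only Apoe and Irf4 could be tested, and Irf4 did not pass.

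**Figure D4:**
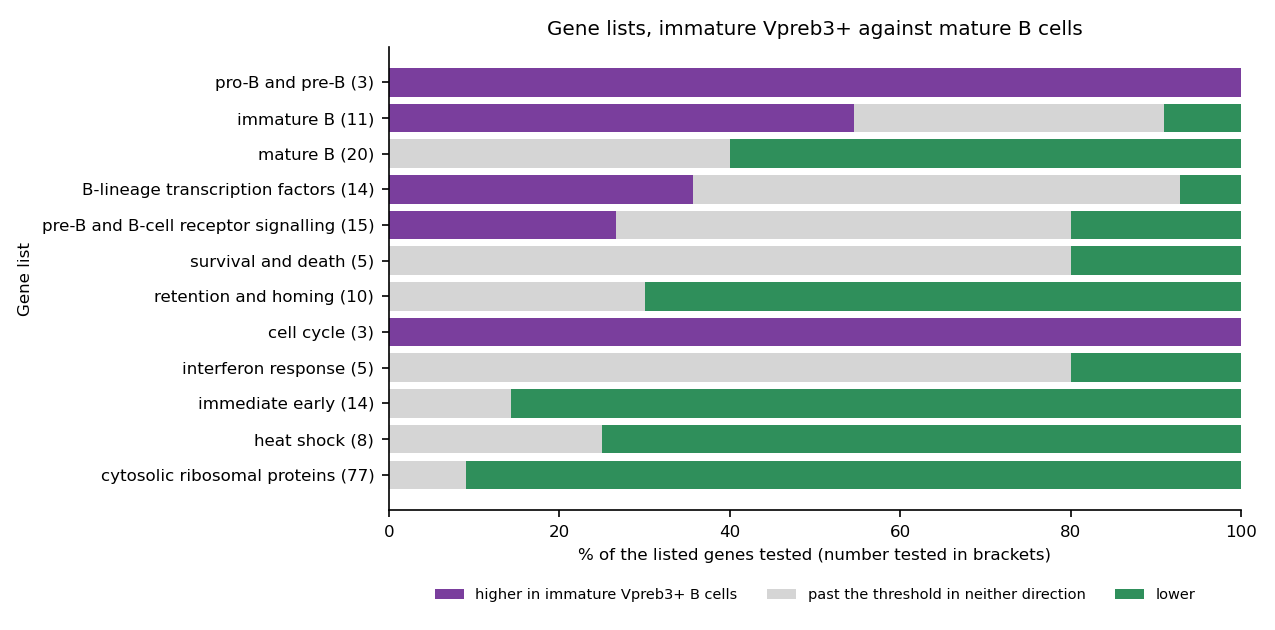
Gene lists in immature Vpreb3+ against mature B cells. Each bar gives the percent of the tested genes of a list that were higher (purple), lower (green) or past the threshold in neither direction (grey), with the number tested in brackets. The mature B, homing, immediate early, heat shock and ribosomal lists hold no gene that was higher, and the pro-B and pre-B and cell cycle lists rest on 3 genes each. The markers Iglc1 and Spib are included in the immature B and transcription factor bars.

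Between the groups, 2 of 1799 genes tested in the immature cells passed (0.111% of all), both lower in Mono+MCTR3, and none was higher (0.00%); 180 had an unadjusted p under 0.05. Klf6, an early response transcription factor, was at 661, 1061, 870 and 437 CPM in Mono mice 1 to 4 and at 258, 350, 208 and 186 in Mono+MCTR3 mice 1 to 4. All Mono+MCTR3 mice were below all Mono mice, and the log2 difference was −1.38 ± 0.256 (edgeR adjusted p = 0.0441). Klf2, a factor that holds lymphocytes quiescent and controls their exit and homing genes, was at 5889, 12632, 12046 and 4651 CPM in Mono and at 3129, 3906, 4110 and 2391 in Mono+MCTR3. Again no value overlapped, with Mono mice 2 and 3 far above the rest (−1.36 ± 0.256, edgeR adjusted p = 0.0441). Of all genes tested, 4.95% did not overlap between the groups, and 2.95% did so with all Mono+MCTR3 mice lower. Both calls were lost when any 1 of Mono mice 1, 2 or 3 or of Mono+MCTR3 mice 1 or 2 was left out, with adjusted p of 0.0679 to 0.327, and when cells with a pre-B or cell cycle gene were left out (−1.11 and −1.10, adjusted p = 0.409 for both). With DESeq2 Klf6 passed and Klf2 did not (−1.37, DESeq2 adjusted p = 0.999).

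Immediate early and heat shock genes moved with this result. The 15 immediate early genes, Klf6 among them, summed to 4990 to 12776 UMIs per 1000000 in Mono and to 4055 to 7018 in Mono+MCTR3, and the 9 heat shock genes to 4509 to 13270 and to 2840 to 6156. Fos was at 661, 1231, 1041 and 594 CPM in Mono and at 264, 473, 530 and 330 in Mono+MCTR3, without overlap, and did not pass (−1.10 ± 0.250, edgeR adjusted p = 0.131). All 12 tested immediate early genes and all 7 tested heat shock genes had a log2 difference below 0, with medians of −0.54 and −0.75 beside 0.00 for all genes, and only Klf6 passed. The shift was not confined to the immature cells. In mature B cells the immediate early genes summed to 9202 to 11904 UMIs per 1000000 in Mono and to 6192 to 9959 in Mono+MCTR3. The heat shock genes summed there to 5810 to 13472 and to 3200 to 10049. The ranges of these sums overlapped between the groups in both classes. The part of these genes in the Klf2 and Klf6 values was not tested.

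**Figure D5:**
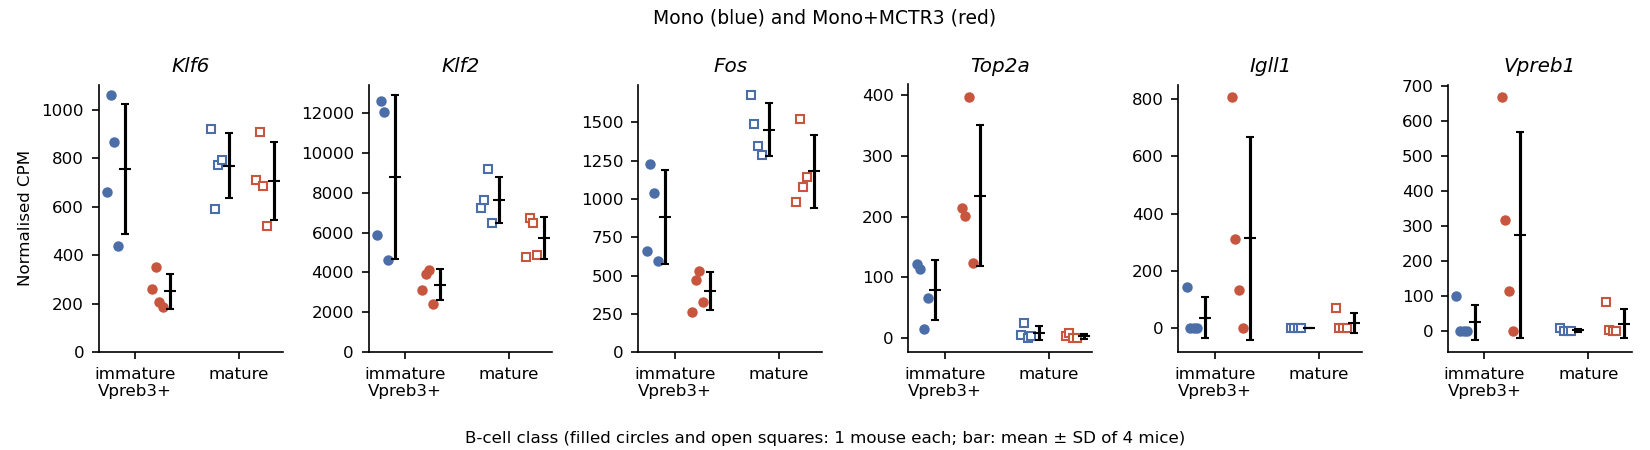
Normalised CPM of 6 genes in immature Vpreb3+ B cells (filled circles) and mature B cells (open squares) of Mono (blue) and Mono+MCTR3 (red) mice. Each symbol is a mouse and the bar is the mean ± SD of 4 mice. In immature cells the groups do not overlap for Klf6, Klf2, Fos and Top2a; Igll1 and Vpreb1 are at 0 in 3 of 4 Mono mice and in Mono+MCTR3 mouse 4.

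None of the genes with the largest positive difference in Mono+MCTR3 passed. Vpreb1 and Igll1 differed by 3.45 ± 0.777 and 3.12 ± 0.789 (edgeR adjusted p = 0.131 and 0.201), fitted values that rest on a Mono group with a single mouse above 0. The other tested genes of the pro-B and pre-B list went both ways, with Akap12 at 0.70 and Tifa at 0.36, and Sox4 at −0.29, Ebf1 at −0.10 and Cd93 at −0.05. Top2a, a topoisomerase of dividing cells, was at 122, 113, 14.3 and 66.7 CPM in Mono and at 214, 202, 398 and 124 in Mono+MCTR3 (1.42 ± 0.352, edgeR adjusted p = 0.201). Tuba1b differed by 1.48 ± 0.380 and Dut, which keeps uracil out of DNA, by 1.48 ± 0.458 (edgeR adjusted p = 0.201 and 0.294). All 9 tested cell cycle genes had a log2 difference above 0 (median 1.06 beside 0.00 for all genes) and none passed. They are 9 of 23 listed, and the filter could be met in the cells of 1 group alone, so this count is a description. Of the cell cycle genes used for the share, 3 or more UMIs were found in only 21 cells, 6 from Mono and 15 from Mono+MCTR3. The lowest values besides Klf6 and Klf2 were Cebpb (−1.68 ± 0.677), Hspa1a (−1.49 ± 0.779) and Gem (−1.21 ± 0.406), with edgeR adjusted p of 0.319 to 0.518. Cebpb was at 736 CPM in Mono mouse 2 and at 28.7 to 146 in the other 7 mice. H2-Aa (−0.05 ± 0.211), Cd24a (0.30 ± 0.146) and Chchd10 (−0.03 ± 0.155) did not pass, and of the lists named above only the mature B, homing and immediate early lists held a gene that passed, Klf2 or Klf6.

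Whether the group difference was larger in immature than in mature B cells was tested as an interaction. None of 2344 genes passed (0.00%), and 155 had an unadjusted p under 0.05. The likelihood ratio test of edgeR gave 4 and DESeq2 none. On simulated data this fit recovered only 52% of genes changed by 1 on the log2 scale. Klf6 and Klf2 had the smallest p, with interaction terms of −1.25 ± 0.262 and −0.82 ± 0.172 (edgeR adjusted p = 0.0536 for both). In mature B cells Klf6 was 770 ± 136 CPM in Mono and 706 ± 160 in Mono+MCTR3, and Klf2 was 7639 ± 1147 and 5724 ± 1040 (SD, n = 4). In immature cells Klf6 was 757 ± 269 and 251 ± 72.9, and Klf2 was 8805 ± 4120 and 3384 ± 785 (SD, n = 4).

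The share of immature cells among B cells was set against a measure of neutrophil precursors in the same mouse, the share of neutrophils with a UMI of Fcnb, a granule gene made in the marrow. The Fcnb share was 2.15%, 0.872%, 2.10% and 2.46% in Mono and 2.22%, 4.37%, 1.97% and 0.188% in Mono+MCTR3. It rests on 15, 9, 16 and 16 Fcnb+ cells in Mono and on 17, 42, 16 and 1 in Mono+MCTR3. Mice with more Fcnb+ neutrophils had fewer immature cells among their B cells: Pearson's r was −0.781 (permutation p = 0.0220) and Spearman's rho −0.810 (permutation p = 0.0218, n = 8, 1 relation). Without Mono+MCTR3 mice 2 and 4, the farthest from the median Fcnb share, r was −0.791 and the exact permutation p 0.114 (n = 6). So r kept its size, and the call was lost with fewer mice in the test. Whether it would be lost without another 2 mice was not tested. Each group has 4 mice, too few for r within a group. Both shares come from the same libraries, and neither was thinned to equal depth. The median UMIs per cell kept were 2218, 1713.5, 1685.5 and 2283.5 in Mono and 2147, 2428, 1753 and 1925 in Mono+MCTR3. The part of depth in this relation was not tested. B cells as a whole were 16.4%, 6.21%, 8.15% and 16.6% of the cells kept in Mono and 17.3%, 24.0%, 5.66% and 7.39% in Mono+MCTR3.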

How the data were processed

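The authors deposited raw UMI counts, genes by barcodes, in a table for each group, made with Cell Ranger and STAR against GRCm38; the submitters' notes also name edgeR, and no versions are given. The 4 mice of a group were joined by aggregation, so any equalising of depth applies within a group. From these counts, 10256 of 10538 barcodes were kept by the limits of the rule. The members, gene lists and comparisons were chosen with earlier results of these data known.

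UMIs were summed per mouse and class, with at least 10 cells per mouse, and tested with edgeR 4.0.16 in R 4.3.3 (TMM, filterByExpr, glmQLFit, glmQLFTest, Benjamini-Hochberg adjusted p under 0.05). The study's likelihood ratio test and DESeq2 1.42.0 were alternatives. SE is the log2 difference divided by the root of F. The immature and mature fit had mouse as a block; replicate numbers pair no mice between groups. The labels give 4 mice per group, so p-values measure the spread between mice; shares and intervals cover counting error only. Shares were compared with exact two-sided permutation tests (scipy 1.17.1, Python 3.11.15). Cells were thinned to 1000 UMIs with numpy 2.4.6 and seed 1, which left out 3 immature and 2 mature cells. Scrublet in scanpy 1.11.5 marked 51 of 10256 cells (0.497%), too few to take the caller as having worked, so doublets were kept; 1 was an immature cell. On simulated data the fit between groups recovered 83% of genes changed by 1 on the log2 scale and 100% of those changed by 2 (1799 genes). The interaction fit recovered 52% and 94% (2344 genes). The simulated spread followed the fitted trend, so genes that vary between mice more than the trend were not represented.

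Genes are named when they are among the 10 largest changes each way past the threshold in all mice (members against mature, rule genes left out), the 10 largest between groups or, where fewer than 5 pass, the 5 highest and lowest with at least 100 UMIs, or when a list holds them. Coordinates are from GENCODE vM21, promoters from RefSeq. Of 6 marker genes 3 had a promoter there. One gene that the rule names is not reported here.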

Additional observations from a re-analysis of the deposited data

Results flagged for a closer look

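A mouse stood apart from the other 3 of its group, by Dixon's criterion at the 95% level, in 5 of 76 groups of values examined in immature Vpreb3+ B cells; chance flags about 1 in 20. In Mono mouse 1 Igll1 was at 143.6 CPM and Vpreb1 at 100.5, and both were at 0 in the other Mono mice. In Mono mouse 2 Cebpb was at 736 CPM, against 28.7 to 146 in the other 3, and Wfdc17 at 156 CPM, against 0 to 14.4. In Mono mouse 4 Gimap4 was at 6.06 CPM, against 14.1 to 14.4.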

How the results depend on the processing

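The 62 named genes compared between immature and mature cells kept their direction under every alternative run, with 3 exceptions. These were Hmgb2, Tubb5 and Igkc. Without cells with pre-B or cell cycle genes, Hmgb2 turned to −0.25 and did not pass. Tubb5 turned there to −0.46 and passed (edgeR adjusted p = 0.0106). Igkc did not pass in the main fit. It turned to 0.13 with library totals and 0.17 with thinned cells, and passed in both (edgeR adjusted p = 0.04997 and 0.0172). Without cells with pre-B or cell cycle genes it turned to 0.22 and passed (edgeR adjusted p = 0.00204). With mature B cells without Vpreb3 it turned to 0.0892 and did not pass. For these the cause was not tested beyond what each alternative removes. Of 1188 alternative values of these genes, 1158 kept direction and call, 18 lost the call, 6 gained it and 6 reversed. Genes past the threshold between immature and mature cells numbered 915 without a filter and 314 with cells thinned to 1000 UMIs (732 tested), and 423 to 636 with a mouse left out. Without the replicate block 535 passed, 526 of them shared with the 591. No paired analysis of the groups was possible because nothing ties a suffix number in one group to the same number in the other.

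Between groups, only Klf6 passed with DESeq2 (1 gene), 12 with the likelihood ratio test, 45 without a filter, 0 without cells with pre-B or cell cycle genes, and 0 to 8 with a mouse left out. The interaction gave 4 with the likelihood ratio test, 12 without a filter, 4 with at least 2 Vpreb3 UMIs, 2 with doublets removed, 2 with up to 10% mitochondrial UMIs, 2 without the haemoglobin-rich cells and 0 to 2 with a mouse left out. The difference in share of cells kept (0.0791 points) ranged from −0.822 to 0.870 with a mouse left out and was −0.139 with thinned B cells; in share of B cells (−3.81) it was −5.27 with thinned B cells (exact permutation p = 0.0286), and −5.36 to −2.03 with a mouse left out, with −2.03 without Mono mouse 2 and −2.19 without Mono+MCTR3 mouse 2. The pre-B share (2.95 points) differed by 4.91 with at least 2 Vpreb3 UMIs, 5.22 with doublets removed, 7.23 in unthinned cells, 7.57 with mitochondrial UMIs up to 10% and 9.05 with no upper limit on genes, and by 1.77 to 5.12 with a mouse left out, where Mono mouse 2 gave the lowest value, Mono+MCTR3 mouse 4 the highest and Mono+MCTR3 mouse 3 gave 1.95. None of these passed. The cell cycle share (4.03 points) differed by 5.29 points in unthinned cells, 5.88 with mitochondrial UMIs up to 10% and 5.15 with no upper limit on genes (exact permutation p = 0.0286 each, not adjusted), by 2.60 with doublets removed (exact permutation p = 0.343) and by 2.29 to 5.47 with a mouse left out, the lowest without Mono+MCTR3 mouse 3. The lambda difference was 10.3 with a dominant chain and 10.98 to 16.9 with a mouse left out, and r was −0.791 without 2 mice. Leaving out haemoglobin-rich cells or cells with pre-B or cell cycle genes and all alternatives on light chains were chosen after seeing the data. Few cells in Mono+MCTR3 mice 3 and 4 and sparse pre-B genes limit the comparison of the groups.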
